A study of Drosophila melanogaster with 5 samples.

Results

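In 2 of the 5 larval RNA-seq libraries of this study, CG1603attP replicate 1 and y1w1118 replicate 2, a group of cuticle protein genes was many times more abundant than in CG1603attP replicates 2 and 3 and y1w1118 replicate 1. The difference ran across the genotypes, since each side held a library of both. The 2 libraries are called TwdlM-high here, after the Tweedle gene TwdlM, and the other 3 are called TwdlM-low. This division was seen in the counts and is in none of the labels, so the values of the library difference describe these 5 libraries and are not a test of a condition. With genotype as a covariate, 99 of 11045 genes passed an adjusted threshold of 0.05 (quasi-likelihood test of edgeR, Benjamini-Hochberg adjusted), which is used below only to draw up the list of genes to describe.

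The study compared whole third-instar larvae of 2 genotypes. CG1603attP larvae (3 libraries) were homozygous for a deletion in which most of the CG1603 gene, which encodes the zinc-finger protein Mzfp1, was replaced by an attP site and a 3P3:dsRed marker. They came from parents that carried the deletion over a CyO, GFP balancer chromosome and the deletion was made in the y1w1118 background; homozygotes die as larvae, and no source used here says how many independent deletion lines were pooled. y1w1118 larvae (2 libraries), the wild type of the study, carry the y1 and w1118 alleles, as the deletion line does by its origin. Many larvae were pooled for each RNA extraction, all were raised at 25°C, and no source used here gives the hours since the last moult of any pool.

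The larval cuticle is an extracellular layer of chitin and protein that the epidermis secretes under the old cuticle before each moult. Its proteins are encoded by large gene families, of which the Tweedle (Twdl) and Cpr proteins bind or are thought to bind chitin, while Osiris (Osi) genes encode insect-specific membrane proteins of cuticle-secreting cells. Pulses of the steroid ecdysone start each moult through early transcription factors such as Eip74EF and Eip75B, and ftz-f1 acts as the pulse declines. In Drosophila, cuticle genes are switched on and off in waves within such a cycle.

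The depth did not order the libraries as the cuticle genes did. The TwdlM-high libraries held 14514277 (CG1603attP replicate 1) and 9044930 (y1w1118 replicate 2) analysed reads, the most and the fewest of the 5, against 9310913 to 12819340 in the TwdlM-low libraries. Levels are given as CPM, read counts scaled to a library total common to all samples, with TMM factors, which assume that most genes do not change, and 1 read was worth between 0.0668 and 0.116 CPM. Reads with several alignments were 7.21% and 7.10% of all reads in the TwdlM-high libraries, within the range of 5.58% to 10.6% in the TwdlM-low ones. The targeted gene, CG1603, had 0, 0 and 3 reads in CG1603attP replicates 1, 2 and 3, against 124 and 102 reads in y1w1118 replicates 1 and 2, so each library carried the genotype of its label.

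All 4 genes that mark the library difference were higher in both TwdlM-high libraries than in every TwdlM-low one. TwdlM, a Tweedle cuticle protein gene (FBgn0039434, dm6 chromosome 3R, 26619118 to 26620224, plus strand), had 872 CPM in CG1603attP replicate 1 and 592 CPM in y1w1118 replicate 2. In the TwdlM-low libraries it had 1.74 and 9.85 CPM in CG1603attP replicates 2 and 3 and 1.67 CPM in y1w1118 replicate 1. The mean level was thus 166-fold higher in the TwdlM-high libraries, and the log2 difference in the fit was 7.67 ± 0.61 (SE, 2 against 3 libraries). The lowest TwdlM-high library lay far above the highest TwdlM-low one, whichever genotype it came from.

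The other 3 marker genes divided the libraries in the same way. Osi6 (FBgn0027527, 3R, 6234708 to 6237181, plus strand) had 223 CPM in CG1603attP replicate 1 and 112 CPM in y1w1118 replicate 2, against 3.12, 5.61 and 0.196 CPM in CG1603attP replicates 2 and 3 and y1w1118 replicate 1. Cpr64Ad, which encodes a cuticle protein with the chitin-binding Rebers and Riddiford motif (FBgn0035513, 3L, 4215379 to 4216414, plus strand), had 278 and 404 CPM in these TwdlM-high libraries, against 6.39, 5.40 and 16.9 CPM in the TwdlM-low ones. Vajk1 (FBgn0028938, 2L, 13920707 to 13923553, minus strand) had 188 and 215 CPM in the TwdlM-high libraries, against 2.25, 0.847 and 0.393 CPM in the TwdlM-low ones. In what follows, values are given in this order: CG1603attP replicate 1 and y1w1118 replicate 2 for the TwdlM-high libraries, then CG1603attP replicates 2 and 3 and y1w1118 replicate 1 for the TwdlM-low libraries. The log2 differences of Osi6, Cpr64Ad and Vajk1 were 6.31 ± 0.50, 5.13 ± 0.25 and 7.39 ± 0.45 (SE). The order within the TwdlM-high libraries differed between these genes, with Osi6 higher in CG1603attP replicate 1 and Cpr64Ad and Vajk1 higher in y1w1118 replicate 2.

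**Figure D1:**
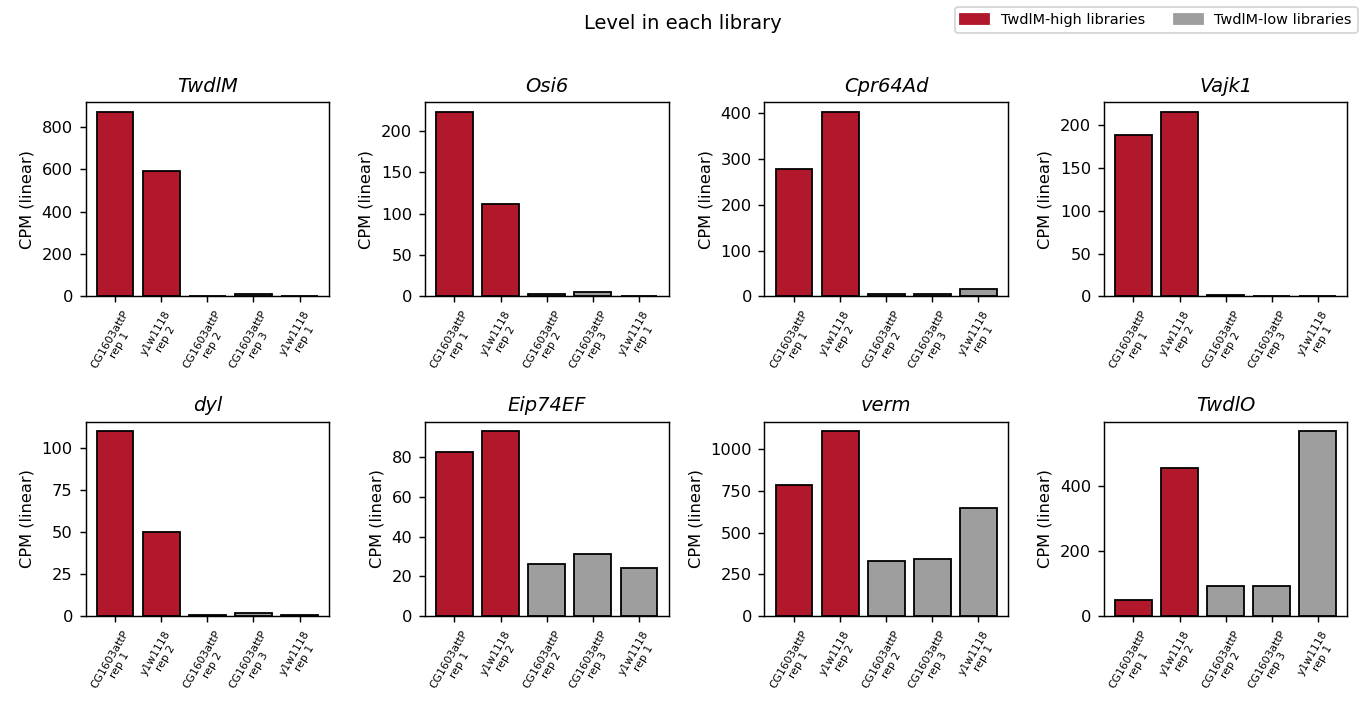
Level of 8 genes in each library, in TMM-scaled CPM on a linear axis from 0, with TwdlM-high libraries in red and TwdlM-low libraries in grey; each bar is 1 library and there are no error bars. TwdlM, Osi6, Cpr64Ad, Vajk1 and dyl are close to 0 in the grey libraries, Eip74EF and verm are lower but present there, and TwdlO follows the genotype, with 48.4 to 92.8 CPM in CG1603attP and 454 to 569 CPM in y1w1118.

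All 99 genes past the threshold were higher in the TwdlM-high libraries, and none was lower. They were 0.896% of the genes tested, a share that depends on the threshold and on the fit. In the lower direction 0 genes passed by edgeR, 72 did so at an unadjusted p under 0.05 (312 in the higher direction), and DESeq2 called 10 lower and 165 higher (1.49%), with 91 of the 99 among its calls. All 99 were annotated as protein coding. Their log2 differences ran between 1.04 and 9.90: 52 genes were at 5 or above, 34 between 2 and 5, and 13 below 2. Together the 99 genes took 9987 and 11001 CPM in the TwdlM-high libraries, against 1130, 1227 and 2019 CPM in the TwdlM-low libraries. In bulk RNA of whole larvae, fewer cells of a type and less RNA per cell cannot be told apart.

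The values within each genotype follow largely from how the genes were chosen and are given as a description. Within CG1603attP and within y1w1118 alike, 99 of the 99 genes were higher in the TwdlM-high library (14.7% of all genes tested were higher within both). For 94 genes both TwdlM-high libraries lay above every TwdlM-low library, a pattern that 5.10% of all genes tested had, and 3.10% had the opposite pattern. The 5 genes with overlap were CG33110, CG5326, bond, CG3777 and Cht7, each with a higher level in y1w1118 replicate 1 than in CG1603attP replicate 1. Between the 2 TwdlM-high libraries, 58 of the 99 genes differed by less than 2-fold, 42 were higher in CG1603attP replicate 1 and 57 were higher in y1w1118 replicate 2.

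**Figure D2:**
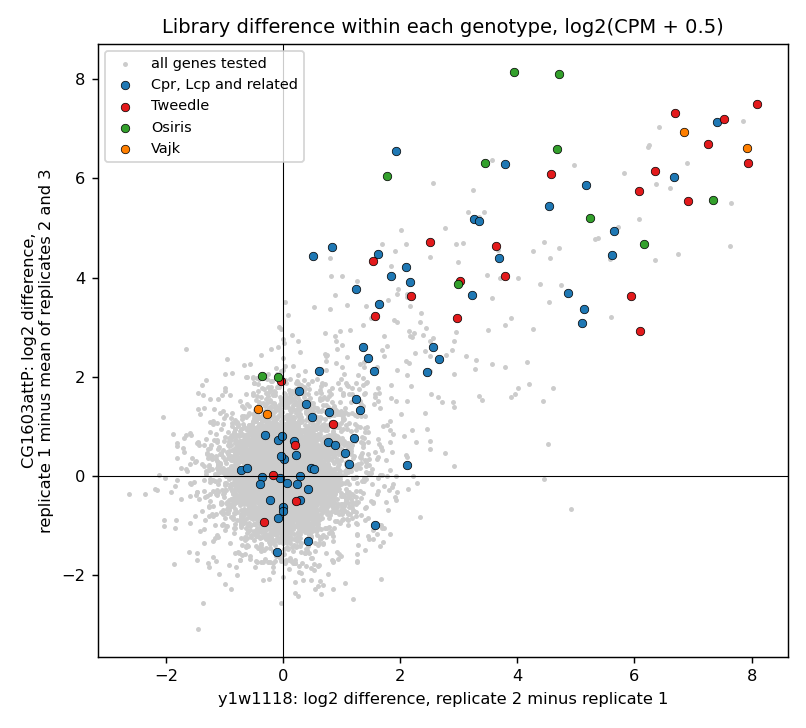
Difference between TwdlM-high and TwdlM-low libraries for every gene tested, on the log2(CPM + 0.5) scale, within y1w1118 (x axis, replicate 2 minus replicate 1) and within CG1603attP (y axis, replicate 1 minus the mean of replicates 2 and 3). Each point is a gene; many Tweedle (red) and Osiris (green) genes, part of the Cpr and Lcp genes (blue) and 2 of the 4 Vajk genes (orange) lie at the upper right, TwdlM for example at 8.09 and 7.50, while most genes lie near 0 on both axes, as TwdlP does at 0.22 and -0.50.

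By position, 39 of the 99 genes were on chromosome arm 3R, of 2702 tested there, and 23 on 3L, of 2219. The X held 15 of 1744, 2R 14 of 2241 and 2L 8 of 1946. Several of the families sit in clusters, which are described with each family.

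Tweedle genes were the family with the most members past the threshold in the full edgeR fit. DESeq2 called 17 Tweedle genes higher and 18 genes of the larger list of Cpr and related genes. Of 27 Tweedle genes 25 had enough reads to be tested, 14 passed in the higher direction and none in the lower, and the median log2 difference was 5.32 (5.17 with the 2 genes that had 3 or fewer reads in each TwdlM-low library set to their bound), against -0.01 over all genes tested. Those 2 genes were tested only because of their reads in the TwdlM-high libraries, so the median follows in part from the filter. Besides TwdlM, the highest differences were those of TwdlW (193 and 50.9 CPM in the TwdlM-high libraries, against 0.291, 1.38 and 0 CPM in the TwdlM-low ones) and TwdlD (387 and 92.2 CPM, against 1.09, 3.92 and 0 CPM). Both were thus nearly silent in the TwdlM-low libraries, and both were several times higher in CG1603attP replicate 1 than in y1w1118 replicate 2. TwdlH was at nearly the same level in the 2 TwdlM-high libraries, with 318 and 363 CPM, against 1.82, 3.60 and 1.87 CPM in the TwdlM-low ones. Tb, the Tweedle gene whose dominant mutation gives short, squat larvae and pupae, had 42.0 and 25.4 CPM in the TwdlM-high libraries, against 0.291, 0 and 0.589 CPM in the TwdlM-low ones. TwdlK went the other way within the TwdlM-high libraries, with 6.81 and 30.3 CPM, and was at least 58.4-fold higher than in the TwdlM-low libraries, where it had 3 or fewer reads in each. TwdlL had the lowest log2 difference of the 14, 3.62 ± 0.30 (SE), with 161 and 68.7 CPM in the TwdlM-high libraries, against 7.77, 12.9 and 8.05 CPM in the TwdlM-low ones.

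The Tweedle genes did not move as a block. One cluster on 3R, between 26619118 and 26693590, holds 14 of them, of which 13 were tested and 8 passed (TwdlM, TwdlB, TwdlL, TwdlK, TwdlS, TwdlD, TwdlH and Tb). Their neighbours TwdlO, TwdlN and TwdlP, in the same 74.5 kb, were not among them. TwdlO, which lies next to TwdlL, had 48.4 and 454 CPM in the TwdlM-high libraries, against 92.8, 92.6 and 569 CPM in the TwdlM-low ones. Within each genotype TwdlO was lower in the TwdlM-high library, with log2 differences of -0.93 in CG1603attP and -0.32 in y1w1118. TwdlN had 102 and 230 CPM in the TwdlM-high libraries, against 85.1, 117 and 260 CPM in the TwdlM-low ones. TwdlP had 15.3 and 54.8 CPM, against 29.0, 16.3 and 46.9 CPM. These 3 genes divided the libraries by genotype and not by the TwdlM pattern. TwdlJ and TwdlR of the cluster also missed the threshold by edgeR but were called by DESeq2, with positive log2 differences of 5.32 ± 1.20 and 5.17 ± 1.53 (SE).

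Osiris genes had the highest median of the lists, 6.31 (6.15 with 2 genes at their bound). Only 11 of 23 had enough reads to be tested, and 8 of these passed in the higher direction. The 2 at their bound, Osi19 and Osi20, reached the minimum count of 10 only through the TwdlM-high libraries. Other Osiris genes, such as Osi9, also needed these libraries to reach it. The median gene was Osi6, itself a marker of the library difference, so this median follows in part from how the libraries and genes were chosen. All 11 tested genes, and so all 8, lie in 1 cluster on 3R between 6173549 and 6341424, which holds 20 Osiris genes. Of the 5 other genes in that interval 2 were tested and neither passed. Osi20, at the distal end of the cluster, had 166 and 11.7 CPM in the TwdlM-high libraries, against 0.0726, 0.106 and 0.294 CPM in the TwdlM-low ones, and was at least 280.2-fold higher. Its neighbour Osi19 had 39.0 and 6.03 CPM, against 0, 0 and 0.0982 CPM, at least 70.9-fold higher. Osi15 had 180 and 53.8 CPM in the TwdlM-high libraries, against 0.363, 0 and 1.57 CPM in the TwdlM-low ones. For these 3 genes the y1w1118 library of the TwdlM-high pair was well below the CG1603attP one, though above every TwdlM-low library. Of the 8 genes, 7 were higher in CG1603attP replicate 1, the exception being Osi2 with 37.9 CPM there and 42.3 CPM in y1w1118 replicate 2. Osi7 had the lowest log2 difference of the 8, 3.60 ± 0.44 (SE), with 74.9 and 27.5 CPM against 2.69, 7.84 and 3.04 CPM. Osi18 missed the threshold by edgeR but was called by DESeq2, with 34.8 and 2.55 CPM in the TwdlM-high libraries, against 0.0726, 0 and 0.393 CPM in the TwdlM-low ones.

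Cpr genes and related genes of chitin-binding cuticle proteins (Lcp, Ccp, Acp and others) were more divided. Of 97 such genes 68 were tested and 11 passed in the higher direction, and the median log2 difference was 1.29. In 23 of the 68 both TwdlM-high libraries lay above every TwdlM-low one, a pattern that 5.1% of all genes tested had. Cpr65Ea had 125 and 134 CPM in the TwdlM-high libraries, against 1.09, 0 and 0.294 CPM in the TwdlM-low ones. Cpr66D had 42.1 and 101 CPM, against 0.363, 0 and 0.491 CPM. Cpr51A had 185 and 262 CPM, against 1.67, 2.12 and 18.6 CPM. In contrast to the Osiris genes, most of the 11 Cpr genes were higher in y1w1118 replicate 2, and 4 of 11 were higher in CG1603attP replicate 1. Cpr5C, just inside the threshold, had 10.1 and 5.92 CPM in the TwdlM-high libraries and no read in any TwdlM-low library, at least 25.2-fold higher. DESeq2 did not call Cpr5C.

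The clusters of these genes differed in how many members took part. In the Ccp84A cluster on 3R (6686728 to 6704903) 3 of 6 tested genes passed: Ccp84Ag, Ccp84Af and Ccp84Ac. In the Cpr64A cluster on 3L (4207838 to 4216414) 2 of 4 did, Cpr64Ab and Cpr64Ad. In the Lcp65A cluster on 3L (6130386 to 6161589), which encodes larval cuticle proteins, 0 of 11 tested genes passed by edgeR, 5 were at an unadjusted p under 0.05 and DESeq2 called 2. One of these, Lcp65Af, nevertheless had 135 and 654 CPM in the TwdlM-high libraries, against 0, 3.71 and 172 CPM in the TwdlM-low ones. Its levels overlapped between the sets because y1w1118 replicate 1 lay above CG1603attP replicate 1, and its log2 difference was 4.20 ± 1.04 (SE). Cpr78Cc had the same order of libraries, with 76.5 and 236 CPM in the TwdlM-high libraries, against 1.89, 3.60 and 132 CPM in the TwdlM-low ones.

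The small Vajk family, also linked to the cuticle, split evenly. Vajk4 had 98.2 and 102 CPM in the TwdlM-high libraries, against 0.799, 0 and 0.393 CPM in the TwdlM-low ones, which with Vajk1 makes 2 of 4 members past the threshold. Vajk2 had 120 and 875 CPM in the TwdlM-high libraries, against 48.3, 45.3 and 1181 CPM in the TwdlM-low ones. Vajk3 had 208 and 1430 CPM, against 93.5, 81.6 and 1732 CPM. Vajk1, Vajk2 and Vajk3 lie near each other on 2L, and Vajk1 had its 2 high values in the TwdlM-high libraries, whereas the other two had theirs in the y1w1118 libraries. Within CG1603attP, Vajk2 and Vajk3 were also higher in the TwdlM-high library, with log2 differences of 1.35 and 1.25, and within y1w1118 these were -0.43 and -0.28. All 4 Vajk genes passed when either y1w1118 library was left out.

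**Figure D3:**
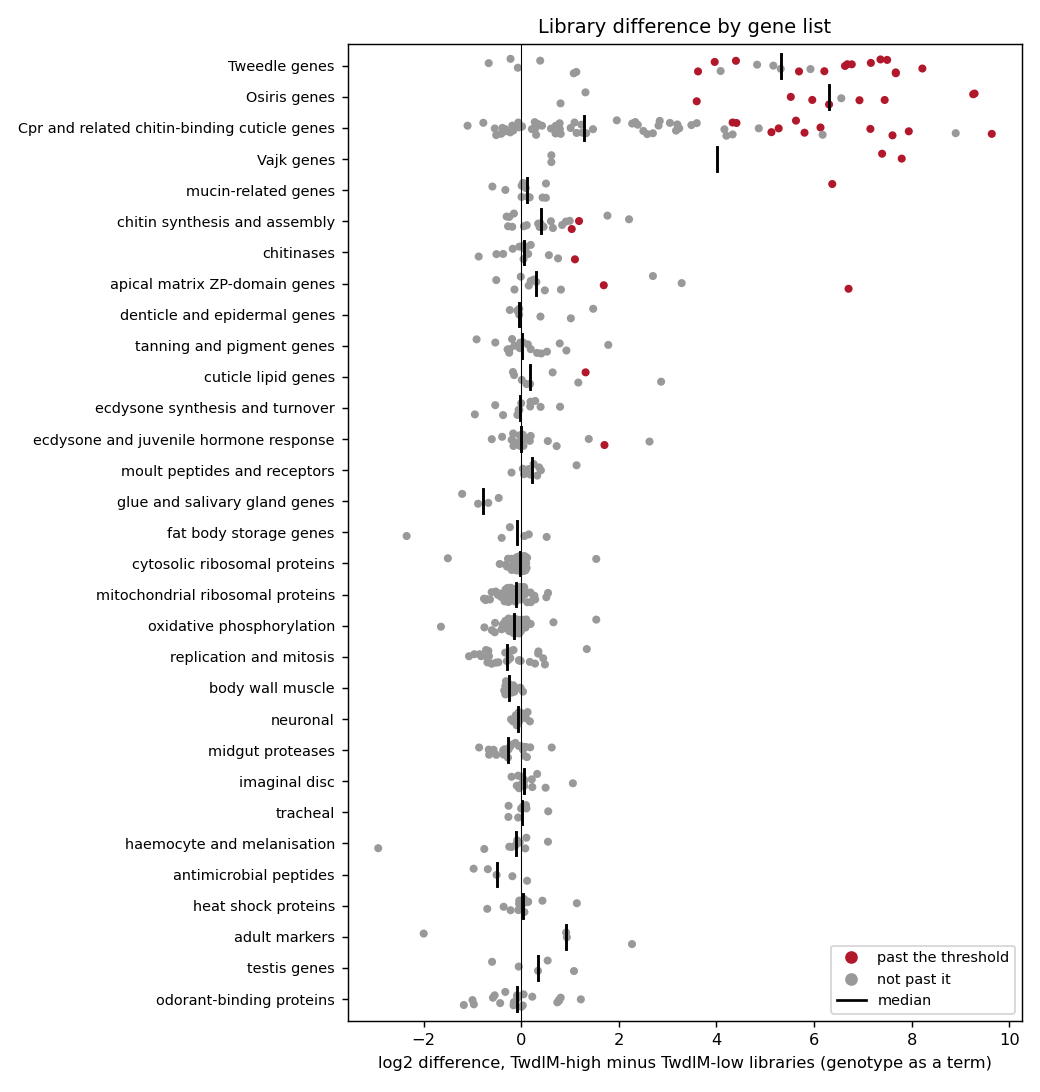
The log2 difference of TwdlM-high minus TwdlM-low libraries, with genotype as a term, for each tested gene of 31 lists; each point is a gene, red where it passed the threshold, and the black bar is the median of the list. The Tweedle, Osiris and Vajk medians lie at 5.32, 6.31 and 4.01 and the Cpr median at 1.29, while the lists of ribosomal, mitochondrial, muscle, neuronal and midgut genes lie between -0.27 and -0.02 with no gene past the threshold. Some Tweedle, Osiris and Cpr genes had enough reads to be tested only through the TwdlM-high libraries.

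Other genes of the apical matrix and of chitin took part in smaller numbers and mostly by smaller amounts. Among 13 zona pellucida (ZP) domain genes 2 passed. dyl (dusky-like), a ZP-domain protein that shapes the apical surface of cuticle-forming cells, had 110 and 49.8 CPM in the TwdlM-high libraries, against 0.726, 1.59 and 0.393 CPM in the TwdlM-low ones. zye, another ZP-domain gene, had 325 and 148 CPM, against 104 CPM, 59.9 CPM and 61.0 CPM. In the TwdlM-low libraries dyl was thus nearly silent and zye merely lower. Of 12 mucin-related genes 1 passed, Muc91C, with 147 and 96.2 CPM in the TwdlM-high libraries, against 1.09, 3.92 and 0.491 CPM in the TwdlM-low ones.

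Of 21 genes of chitin synthesis and assembly 2 passed by edgeR, Gasp and verm. At an unadjusted p under 0.05, 8 of the 21 were higher and 0 lower, and DESeq2 called 5 higher. Within both genotypes 12 of the 21 were higher in the TwdlM-high library (14.7% of all genes tested) and 3 were lower (14.0%). verm (vermiform), a chitin deacetylase, had 789 and 1109 CPM in the TwdlM-high libraries, against 330.2, 345 and 647 CPM in the TwdlM-low ones. Gasp, a secreted chitin-binding protein, had 482 and 296 CPM, against 223, 260.2 and 109 CPM. These were among the lowest log2 differences of the 99, 1.04 ± 0.16 and 1.19 ± 0.17 (SE), in abundant genes. serp, a chitin deacetylase gene close to verm, had a log2 difference of 0.92 ± 0.18 (SE) and did not pass by edgeR but was called by DESeq2. kkv, the chitin synthase of the epidermis, had 129 and 141 CPM in the TwdlM-high libraries, against 117, 146 and 115 CPM in the TwdlM-low ones, a log2 difference of 0.11 ± 0.18 (SE). Of 14 chitinase genes 1 passed by edgeR, Cht7, at 78.1 and 253 CPM against 34.3, 39.8 and 115 CPM. At an unadjusted p under 0.05, 3 chitinase genes were higher and 1 was lower, and DESeq2 called 2 higher. Within each genotype Cht7 was higher in the TwdlM-high library, with log2 differences of 1.07 in CG1603attP and 1.13 in y1w1118.

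Genes of the waterproof outer layer of the cuticle were also on the list. Of 9 cuticle lipid genes 1 passed by edgeR, 3 were higher at an unadjusted p under 0.05 and DESeq2 called 3 higher. The gene that passed was snu (snustorr), an ABC transporter needed for the lipid barrier of the cuticle. It had 112 and 158 CPM in the TwdlM-high libraries, against 40.6, 48.0 and 64.7 CPM in the TwdlM-low ones. osy (oskyddad), another ABC transporter of this barrier that was in no list, had 48.7 and 54.6 CPM, against 16.0, 19.2 and 21.3 CPM. Their log2 differences were 1.32 ± 0.16 and 1.42 ± 0.22 (SE). snsl (snustorr snarlik), an extracellular protein of the same process, had 19.0 and 18.3 CPM in the TwdlM-high libraries, against 1.96, 4.98 and 1.67 CPM in the TwdlM-low ones, and missed the threshold at a log2 difference of 2.87 ± 0.51 (SE).

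A stretch of 3R held genes that combined a library difference with a genotype difference. bond, which encodes an elongase of very long chain fatty acids, and the nearby CG33110 and CG5326 lie between 22532174 and 22580392 and all 3 passed by edgeR, while the 2 other tested genes of this stretch did not. DESeq2 called 2 of the 3 but not CG33110. bond had 31.3 and 253 CPM in the TwdlM-high libraries, against 14.0, 12.2 and 108 CPM in the TwdlM-low ones. The sets overlapped because both y1w1118 libraries lay above the CG1603attP ones. Within each genotype the TwdlM-high library was higher by nearly the same amount, a log2 difference of 1.23 in CG1603attP and 1.23 in y1w1118. CG5326 had 93.2 and 349 CPM in the TwdlM-high libraries, against 23.8, 34.5 and 112 CPM in the TwdlM-low ones, with within-genotype log2 differences of 1.68 in CG1603attP and 1.63 in y1w1118.

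Of the 99 genes 56 were in none of the 31 lists, and 51 of the 99 are known only by a CG number. Several of these had the highest fitted log2 differences, a value that is poorly bounded where the TwdlM-low libraries hold no read. CG17127 had 11.0 and 9.16 CPM in the TwdlM-high libraries and no read in the TwdlM-low ones, at least 31.8-fold higher. DESeq2 did not call CG17127. CG43386 had 41.9 and 82.3 CPM, against 0.0726, 0 and 0.196 CPM, at least 195-fold higher. CG11584 had 69.4 and 75.6 CPM, against 0.0726, 0 and 0.393 CPM. These 3 genes differed by less than 2-fold between the TwdlM-high libraries and were almost without reads elsewhere. CG14147 had 141 and 115 CPM in the TwdlM-high libraries, against 0.291, 0.741 and 0 CPM in the TwdlM-low ones. CG12723 had 46.3 and 5.45 CPM in the TwdlM-high libraries and 2 reads in all in the TwdlM-low ones, at least 81.5-fold higher. The remaining genes of the 15 highest were CG31626, CG15731 and CG12164, at least 68.0-fold, 39.8-fold and 154-fold higher. In all, 12 of the 99 genes had 3 or fewer reads in each TwdlM-low library.

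CG8170 and CG33110 were just inside the threshold with Cpr5C, at log2 differences of 2.46 ± 0.40 and 2.71 ± 0.45 (SE). obst-A, a chitin-binding protein of the larval cuticle, was just outside with 201 and 409 CPM in the TwdlM-high libraries, against 22.7, 29.1 and 185 CPM in the TwdlM-low ones. CG2663 and CG14960 were outside with log2 differences of 2.13 ± 0.36 and 5.84 ± 0.98 (SE). DESeq2 called obst-A, CG2663 and CG14960 higher, so the edge of the list depended on the tool.

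Few genes of the hormonal and neuropeptide control of moulting passed. Of 22 genes of the ecdysone and juvenile hormone response 1 passed by edgeR, 4 were higher at an unadjusted p under 0.05 and DESeq2 called 3 higher, and the median log2 difference was 0.00. The gene that passed by edgeR was Eip74EF, an ecdysone-induced ETS-domain transcription factor (3L, 17558672 to 17619325, minus strand), with 82.5 and 93.3 CPM in the TwdlM-high libraries, against 26.1, 31 and 24.2 CPM in the TwdlM-low ones. It was 3.24-fold higher in the mean, the sets did not overlap, and the 3 TwdlM-low libraries lay close together across the genotypes. Eip75B, an early ecdysone gene that encodes a nuclear receptor, had 511 and 349 CPM in the TwdlM-high libraries, against 431, 465 and 395 CPM in the TwdlM-low ones. EcR, the ecdysone receptor, had a log2 difference of 0.05 ± 0.16 (SE). Hr3, a nuclear receptor gene of the ecdysone cascade, was near 2 to 4 CPM everywhere, with 2.07 and 1.74 CPM in the TwdlM-high libraries, against 3.85, 1.69 and 3.14 CPM in the TwdlM-low ones. These receptors did not separate the sets.

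ftz-f1 and ImpE2 moved in 1 genotype more than in the other. ftz-f1, the nuclear receptor that acts after an ecdysone pulse, had 334 and 116 CPM in the TwdlM-high libraries, against 231, 227 and 20.0 CPM in the TwdlM-low ones, so that only within y1w1118 was the difference more than 4-fold. ImpE2, an ecdysone-inducible gene first found in imaginal discs, had 20.8 and 28.9 CPM in the TwdlM-high libraries, against 0.508, 2.33 and 15.3 CPM in the TwdlM-low ones. Neither passed the threshold of the library difference by edgeR, both were called higher by DESeq2, and the interaction term did not pass for either (adjusted p = 1 for both, quasi-likelihood test of edgeR, Benjamini-Hochberg adjusted).

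Of 10 tested genes for moult peptides and their receptors 0 passed by edgeR, and 0 did so at an unadjusted p under 0.05 or by DESeq2. ETHR, the receptor of ecdysis-triggering hormone, had 61.2 and 8.70 CPM in the TwdlM-high libraries, against 54.1, 71.9 and 12.0 CPM in the TwdlM-low ones. It thus followed the genotype. The same 3 counts were 0 for 18 tanning and pigment genes, whose median was 0.01, and for 12 genes of ecdysone synthesis and turnover, whose median was -0.02. ple, the tyrosine hydroxylase that starts the tanning pathway, had 75.9 and 65.2 CPM in the TwdlM-high libraries, against 116, 40.6 and 152 CPM in the TwdlM-low ones. Whether the pools differed in moult phase or in hours since the moult was not tested, and the libraries are therefore called by their leading gene.

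Lists of other tissues and of basic cell functions had no member past the threshold. No gene passed among 86 cytosolic ribosomal protein genes (median log2 difference -0.02), 71 mitochondrial ribosomal protein genes (-0.11), 69 oxidative phosphorylation genes (-0.15), 22 body wall muscle genes (-0.24), 16 neuronal genes (-0.07) or 25 midgut protease genes (-0.27). At an unadjusted p under 0.05 these 6 lists held 0, 0, 1, 0, 0 and 3 genes, all lower in the TwdlM-high libraries, and DESeq2 called 0 in each. Summed over the muscle list, levels were 24609 and 90302 CPM in the TwdlM-high libraries, against 31192 CPM, 31392 CPM and 97830 CPM in the TwdlM-low ones. Both y1w1118 libraries were thus far above the CG1603attP ones, and within each genotype the TwdlM-high library was the lowest. Of the single genes, 15 of 22 muscle genes, 11 of 29 replication and mitosis genes, 10 of 25 midgut genes and 18 of 69 oxidative phosphorylation genes were lower in the TwdlM-high library within both genotypes, against 14.0% of all genes tested. Summed over the midgut list they were 8579 and 5578 CPM, against 9130 CPM, 10800 CPM and 5613 CPM.

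The lists of replication and mitosis (29 genes), imaginal discs (14), trachea (8), haemocytes and melanisation (10), heat shock (16), glue and salivary gland (4), fat body storage (6), antimicrobial peptides (5), denticle and epidermal genes (7), testis (5) and odorant-binding proteins (21) had no gene past the threshold either. At an unadjusted p under 0.05, 2 denticle and epidermal genes and 1 odorant-binding gene were higher, 1 haemocyte gene and 1 odorant-binding gene were lower, and DESeq2 called 1 of the denticle and epidermal genes higher and 1 odorant-binding gene lower. Gasp, also a marker of trachea, was not in the trachea list and passed among the genes of chitin synthesis and assembly. Only 4 of 14 adult markers had enough reads to be tested, none passed, and their summed level was 10.7 and 9.16 CPM in the TwdlM-high libraries, against 4.21, 12.6 and 10.4 CPM in the TwdlM-low ones. CG1603attP replicate 3 stood out for some of them. Yp3 had 10.7 CPM there, against 0.868 to 2.06 CPM in the other libraries. The untested Yp1, Yp2 and ninaE had 19, 32 and 33 reads there and 0 to 6 reads in the others. Glue gene levels followed genotype, with the 3 ng genes of the salivary gland present in y1w1118 and near 0 in CG1603attP. ng1 had 0.200 and 77.3 CPM in the TwdlM-high libraries, against 0.291, 2.75 and 77.5 CPM in the TwdlM-low ones.

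The genotype comparison is a different contrast from the one that chose the genes, and it was tested with the library set as a further term. This term was itself chosen on the data. For genes that follow the TwdlM pattern it takes out the spread between libraries on which it was chosen. Their genotype p-values with the term are therefore a description and not an independent test. Between CG1603attP and y1w1118 larvae 3037 genes differed (27.5%), 1384 higher (12.5%) and 1653 lower (15%) in CG1603attP, by the quasi-likelihood test of edgeR after Benjamini-Hochberg adjustment. With library size in place of TMM the split was 1835 higher and 1399 lower. Without the term the number was 3353 (30.4%), of which 2917 were shared, 436 were lost with the term and 120 were gained. The common dispersion, the squared coefficient of variation between libraries, was 0.0954 with the term and 0.141 without it.

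Of the 99 genes 27 differed between the genotypes with the library set as a term (27.3%, against 27.5% of all genes), 9 higher and 18 lower in CG1603attP, and 4 did so without the term. The median genotype log2 difference of the 99 was -0.20, and that of all genes was -0.02. Most of the genes that followed the TwdlM pattern thus did not pass for genotype, and their share was close to that of all genes. TwdlM itself was at a genotype log2 difference of 0.94 ± 0.59 (SE, adjusted p = 0.291, quasi-likelihood test of edgeR, Benjamini-Hochberg adjusted). Vajk1 was at 0.24 ± 0.44 (adjusted p = 0.736, same test) and Osi6 at 1.62 ± 0.52 (adjusted p = 0.0539, same test). Cpr64Ad was lower in CG1603attP, at -1.03 ± 0.24 (adjusted p = 0.0178, same test). Without the term the adjusted p of Cpr64Ad was 0.686.

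The cuticle families differed in the direction of the genotype difference. Among Osiris genes the median was 1.11 and 2 of 11 were higher in CG1603attP, Osi20 (3.42 ± 0.74, adjusted p = 0.0134) and Osi14 (1.80 ± 0.28, adjusted p = 0.00357, quasi-likelihood test of edgeR, Benjamini-Hochberg adjusted), and none was lower. The direction of Osi20 turned to -1.67 without y1w1118 replicate 2 (adjusted p = 0.465, same test), where the remaining y1w1118 library is a TwdlM-low one with 3 reads, and DESeq2 gave 0.56 with an adjusted p of 0.856. The Osiris counts were 1 higher and 1 lower with DESeq2, and 2 higher and 2 lower without y1w1118 replicate 2. Among Tweedle genes 3 were higher and 5 lower, with a median of -1.17, and among Vajk genes 0 were higher and 2 lower. Among Cpr and related genes 3 were higher and 32 lower in CG1603attP, with a median of -1.90. The higher calls of Osiris and Tweedle genes depended on the library set term. Without it, 0 Osiris, 0 Tweedle, 0 Vajk and 3 Cpr and related genes were higher in CG1603attP. In the lower direction the counts without it were 0, 5, 2 and 20 in the same order. Whether these families differed from each other was not tested.

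Of the 10 genes with the largest genotype differences in these families, 5 in each direction, 3 were among the 99: Osi20, TwdlD and TwdlW, all higher in CG1603attP. The 5 lowest were not among them. Lcp3, a larval cuticle protein gene, had 0, 0 and 0 CPM in CG1603attP replicates 1, 2 and 3, against 22.4 and 27.6 CPM in y1w1118 replicates 1 and 2. Cpr67Fa1 had 0.200, 0.218 and 0 CPM in CG1603attP, against 34.9 and 153 CPM in y1w1118. Lcp65Ae, Ccp84Ab and Cpr60D were the next lowest, at genotype log2 differences of -5.37 ± 0.78, -5.58 ± 0.68 and -5.18 ± 0.41 (SE). None of these 5 genes passed for the library set by edgeR, and DESeq2 called 1 of them, Cpr67Fa1, higher. In the other direction, Cpr49Ad had 7.21, 15.4 and 9.42 CPM in CG1603attP replicates 1, 2 and 3 and no read in y1w1118. Its neighbour Cpr49Ac had 75.3, 81.4 and 55.8 CPM in CG1603attP, against 14.8 and 20.9 CPM in y1w1118. Neither passed for the library set, where they were at -0.78 ± 0.65 and 0.28 ± 0.24 (SE).

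**Figure D4:**
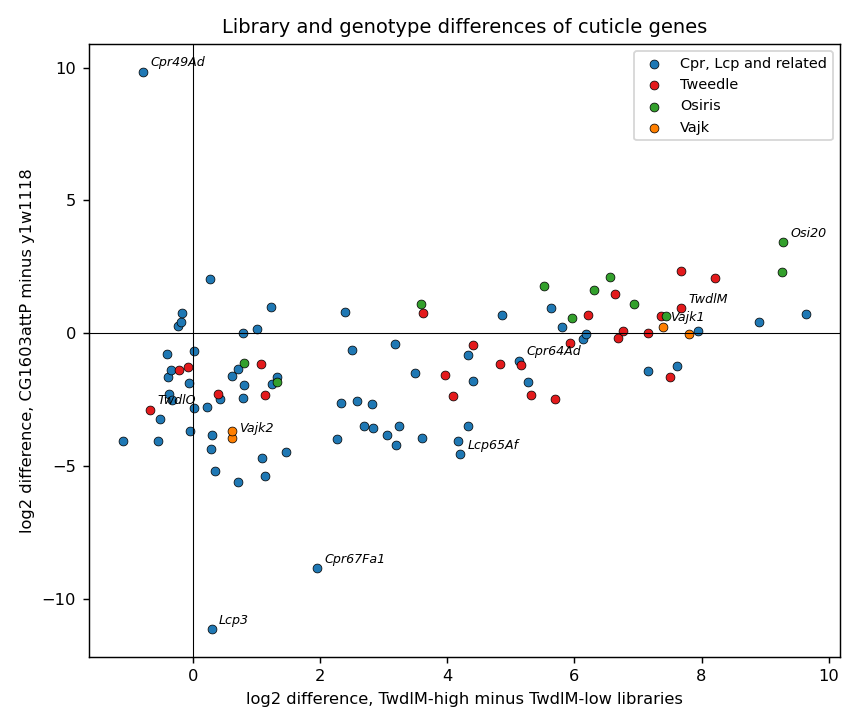
Library difference (x axis, TwdlM-high minus TwdlM-low) against genotype difference (y axis, CG1603attP minus y1w1118), both in log2 from the fit with both terms, for the tested Tweedle, Osiris, Vajk and Cpr or Lcp genes. Each point is a gene; TwdlM (7.67 and 0.94) and Vajk1 (7.39 and 0.24) lie far right near 0 on the y axis, whereas Lcp3 (0.30 and -11.12), TwdlO (-0.66 and -2.88) and Vajk2 (0.62 and -3.93) lie near 0 on the x axis and low on the y axis.

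Some genes passed for genotype only and others along both axes. TwdlO and Vajk2 passed for genotype and not for the library set. For genotype TwdlO was at -2.88 ± 0.19 (adjusted p = 1.12e-04) and Vajk2 at -3.93 ± 0.37 (adjusted p = 4.69e-04, quasi-likelihood test of edgeR, Benjamini-Hochberg adjusted for both), with the library set as a term. bond was at -3.03 ± 0.17 for genotype (adjusted p = 7.92e-05, same test) and at 1.24 ± 0.16 for the library set. Cht7 was at -1.67 ± 0.16 for genotype (adjusted p = 4.67e-04, same test) and at 1.10 ± 0.16 for the library set. For bond and Cht7 the 2 differences added up, so that CG1603attP replicates 2 and 3 were the lowest libraries and y1w1118 replicate 2 was the highest. TwdlW and TwdlD, at genotype differences of 2.08 ± 0.52 (adjusted p = 0.0233, same test) and 2.34 ± 0.56 (adjusted p = 0.0188, same test), were highest in CG1603attP replicate 1. Neither passed for genotype without the library set as a term (adjusted p = 0.728 and 0.692, same test).

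Whether the library difference had the same size in both genotypes was tested by an interaction term. No gene passed by the quasi-likelihood test of edgeR after Benjamini-Hochberg adjustment, 141 of 11045 were at an unadjusted p under 0.05, and DESeq2 called 4. This fit has 1 residual degree of freedom, from CG1603attP replicates 2 and 3, and assumes that the y1w1118 libraries vary as these do, so a p that misses the threshold does not show equal size. Cpr51A, for instance, had a within-genotype log2 difference of 6.28 in CG1603attP and 3.79 in y1w1118, and an adjusted interaction p of 0.474 (same test).

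The list depended on single libraries. Each fit without a library has 1 residual degree of freedom, and where a genotype or set is left with 1 library, that library is assumed to vary like the others. Without CG1603attP replicate 1 the number of genes past the threshold was 33, of which 29 were among the 99, and the Tweedle, Osiris, Cpr and Vajk counts were 8, 3, 7 and 1. Without y1w1118 replicate 2 it was 140, with 85 of the 99, and without y1w1118 replicate 1 it was 157, with 92 of the 99. Without CG1603attP replicates 2 or 3 it was 176 and 221, with 99 of the 99 in both. The Cpr count, 11 in the full fit, was 20 to 29 with each library other than CG1603attP replicate 1 left out, 18 with DESeq2, 22 with the current quasi-likelihood fit and 29 with no filter on low counts. The Tweedle count was 15 to 18 with each of those 4 libraries left out and the Osiris count 9.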

How the data were processed

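Reads were trimmed with cutadapt and mapped by STAR to the dm6 build, and the authors deposited the unnormalized counts that STAR wrote for each gene (GeneCounts). Tool versions and gene annotation are not given in the sources used here. The unstranded column of each deposited count file was used, so overlapping antisense genes cannot be told apart, and reads with several alignments (5.58% to 10.6%) are not counted, which can lower near-identical family members. Unmapped (23.8% to 30.0%), multimapping, no-feature (4.15% to 6.22%) and ambiguous (3.28% to 6.26%) lines and 138 ribosomal RNA genes were removed, leaving 9044930 to 14514277 reads. Of 17735 identifiers 17597 matched the Ensembl annotation of dm6, which gave positions.

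Models were fitted with edgeR 4.0.16 under R 4.3.3 after filterByExpr (minimum count 10, minimum total 15) and TMM scaling, with estimateDisp, the legacy glmQLFit and glmQLFTest. The threshold was an adjusted p of 0.05. The library difference was fitted with genotype as a term (2 residual degrees of freedom) and genotype with and without the library set. The fit was tested on simulated counts. Standard errors were computed as the absolute log2 difference over the square root of F. A fold against libraries with 3 or fewer reads each is a lower bound, computed against 3 reads per library and covering counting error only. Replicates are biological according to the study's methods. Deviations from the genotype mean correlated at -0.47 and -0.24 for equal replicate numbers. The deviations of the y1w1118 libraries mirror each other, so these values cannot show whether equal numbers pair libraries. Alternatives were RLE factors, library size only, no filter, DESeq2 1.42.0, the current quasi-likelihood fit, other pseudocounts (0.1 and 2 in place of 0.5), each replicate left out, and the replicate number as a block.

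The division of libraries, the 99 genes and the gene lists were chosen with earlier results of these data known. Genes were named by rule: 4 markers, CG1603, the 15 highest and 10 lowest differences past the threshold whose mean log2 CPM was 2 or more and whose sets did not overlap, the extremes of each list, the largest genotype differences of cuticle families (up to 5 each way), and those next to the threshold; other named genes were chosen after their values were seen. Promoter motifs and sequences were not analysed here. Of the list symbols, Gfat1, wrl, stw, AANAT1, FASN3 and Orc1 matched no identifier.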

Additional observations from a re-analysis of the deposited data

How the results depend on the processing

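The number of genes past the threshold of the library difference was 99. It was 102 with RLE factors and 104 with library size only, and moved to 227 with no filter on low counts (215 higher, 12 lower), 175 with DESeq2 and 166 with the current quasi-likelihood fit, all but DESeq2 (91) with 99 of the 99 among them. With a replicate left out it ran between 33 (without CG1603attP replicate 1) and 221 (without CG1603attP replicate 3). The genotype calls with the library set as a term, 3037, ran between 1205 (without CG1603attP replicate 1) and 4052 with a replicate left out, with 1324 and 1631 without y1w1118 replicates 1 and 2, and those without the term, 3353, between 1410 (without y1w1118 replicate 1) and 3540, with 1432 without y1w1118 replicate 2. With library size only, the split of the 3037 genotype calls (1384 higher, 1653 lower) became 1835 higher and 1399 lower, and that of the 3353 (1618 and 1735) became 2080 and 1424. Interaction calls, 0 by edgeR, were 14 with no filter, 4 with DESeq2 and 6 with the current quasi-likelihood fit. With the replicate number as a block the genotype calls were 2967; the samples share only a number, and a fit of the library set with that block leaves no residual degrees of freedom. Osi20 reversed for genotype, to a log2 difference of -1.67 without y1w1118 replicate 2, and ran up to 3.82 with another replicate left out. The cause of these changes was not tested. Across the named genes, 1684 of 1914 library values moved by no more than 1 SE of the fit and 230 by more; of 798 genotype values of called genes 710 stayed past the threshold, 87 did not and 1 reversed. Genes higher within both genotypes numbered 1623 under every pseudocount and 1671 with library size only; those at least 4-fold higher in both numbered 126, and 87 to 150 under other pseudocounts. With 2 against 3 libraries and at most 2 residual degrees of freedom, calls in genes with few reads in some libraries differed between tools: Osi18, TwdlJ and TwdlR missed the threshold by edgeR and were called by DESeq2.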
